A study of Mus musculus with 194 samples.

Results

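Repeated cocaine was compared with acute cocaine in the dorsal striatum (DS) of mice within a single sequencing run, called the shared run here. The members were chosen by label: every DS library of that run from mice given repeated or acute cocaine, which came to 16 of the 72 DS libraries, 8 of each treatment and 2 mice at each of 0, 1, 2 and 4 hr. The study followed transcription in 5 brain structures through the development of cocaine sensitization. All mice were males of the strain C57BL/6OLAHSD, 6 to 7 weeks old on arrival, habituated to saline injections before cocaine at 20 mg/kg, and each library held the DS of 1 mouse. Acute mice had 1 injection of cocaine, and the acute 0 hr mice were naive. Repeated mice, labelled chronic, had 5 daily injections, and the repeated 0 hr mice were taken 1 day after the fourth. All 0 hr mice came straight from their home cage, with no injection on that day.

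A further 33 DS libraries, 16 acute and 17 repeated, were used to see whether a difference kept its direction. In these the acute libraries came from 1 run and the repeated libraries from another, so that treatment and run cannot be told apart. They hold another library of each of the 16 mice of the shared run, and libraries of 17 other mice, 8 acute and 9 repeated. In every run the 2 treatments also carried different experiment codes in the sample names: acute mice were exp20, the repeated mice of the shared run were exp17, and the 9 other repeated mice were exp16. Treatment and experiment code cannot be told apart in any of these comparisons.

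The dorsal striatum is built mainly of GABAergic spiny projection neurons, which carry either D1 or D2 dopamine receptors. Cocaine blocks the dopamine transporter, dopamine rises, and D1 receptor and calcium signalling switch on immediate-early genes within minutes. Many immediate-early genes encode transcription factors (the Fos, Egr and Nr4a families) that drive later waves of transcription, and others, such as Arc, act at synapses. The question was how this transcription differs after repeated exposure.

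After repeated cocaine, 1053 of the 12244 genes tested were higher (8.6%) and 900 were lower (7.35%) than after acute cocaine, with time point as a covariate. A gene is called higher or lower where the adjusted p of edgeR's quasi-likelihood test was under 0.05 and the fold change over 1.2, and log2FC is the log2 fold change of repeated over acute, with its standard error (SE). The median log2FC of all genes tested was 0.006. Of the 1953 called genes, 432 had 8 libraries of 1 treatment entirely above the 8 of the other. The share over all genes tested is not given here, so this count only describes the calls. No gene passed the test of a difference that varied with time point (0% of 12244, edgeR). At an unadjusted p under 0.05 there were 609 such genes, and DESeq2 called 0 as well, with 371 at an unadjusted p under 0.05.

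The treatments differed in the libraries themselves, also within the shared run. Total counts were 2096787 to 2704694 for acute and 1689860 to 2170571 for repeated mice. Between the 2 mice of a time point, the chi-square per gene, which is about 1 for counting error alone, was 1.24 to 1.53 for acute and 3.13 to 3.63 for repeated mice over genes with 10 to 300 counts. With every DS library thinned to 1269391 counts, 13782 to 14320 genes had a count in acute and 13293 to 13660 in repeated libraries, so that these ranges did not overlap. The larger spread and the fewer genes of the repeated libraries move with treatment, and their part in the results was not tested. With limma voom and a spread estimated for each treatment, 997 genes were higher and 909 lower.

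Most differences of the shared run turned around in the other runs. There, 2912 genes were higher (23.3% of 12489) and 2709 lower (21.7%). Of 1944 calls of the shared run that could be compared, 353 kept their direction (18.2%) and 1591 did not. The share was 21.0% (410 of 1949) in the other libraries of the same 16 mice, and 16.8% (325 of 1933) in libraries of other mice. Over all genes, called or not, the sign was the same for 33.6% of 12107 genes, and the log2FCs of the shared run and the other runs had a Pearson correlation across genes of -0.33 (-0.20 for the same mice, -0.40 for other mice). Genes are not independent replicates and the same mice enter both sides, so these correlations are descriptions only. Direction was kept in the same mice and in other mice by 227 calls, 141 higher and 86 lower, which is 11.6% of the calls against 24.1% of all genes tested. Of these, 62 were also called the same way in both sets of libraries.

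**Figure D1:**
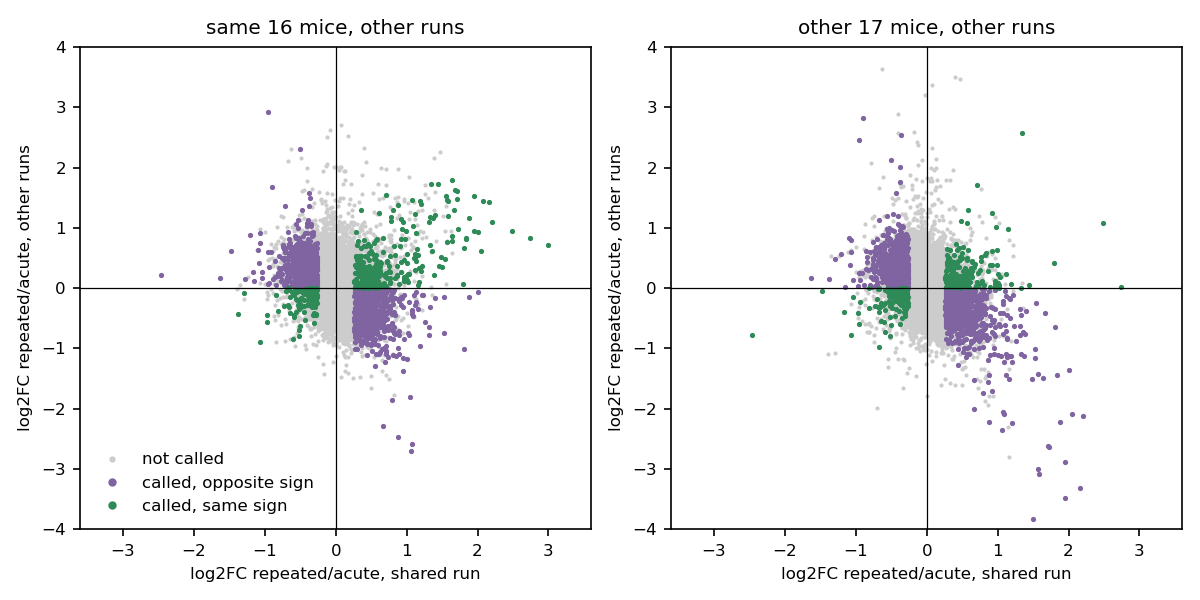
Log2 fold change of repeated over acute cocaine in the shared run (x axis) against the other runs (y axis), for libraries of the same 16 mice (left) and of 17 other mice (right). Each point is a gene; purple marks calls of the shared run with the opposite sign in the other runs (1539 on the left, 1608 on the right) and green those with the same sign (410 and 325).

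Base composition moved with the differences, in opposite directions in the 2 kinds of comparison. For each gene, the GC percent of the last 300 bases of its longest annotated transcript was taken, since these libraries sample transcripts at their 3′ ends (12165 genes, 99.4% of those tested). In the shared run, the median log2FC rose from -0.16 in the quartile of genes with the lowest GC to 0.16 in the quartile with the highest. In the other runs it fell from 0.29 to -0.32 for the same mice and from 0.26 to -0.30 for other mice. The lowest quartile held 59 higher and 569 lower genes in the shared run, and the highest held 557 higher and 34 lower. With offsets that take this trend out of each library, an alternative chosen after seeing the data, 679 genes were higher and 499 lower, and 398 of 1168 calls kept their direction (34.1%), while the share of all genes with the same sign was 42.0%. Among the genes named as called below, those no longer called with these offsets were Egr1, Dnaic2, Nostrin, Hivep1, Nr1d1, Dbp, Rora, Nefl, Gpr6, Ermn, Aqp4 and Ldlrad3.

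**Figure D2:**
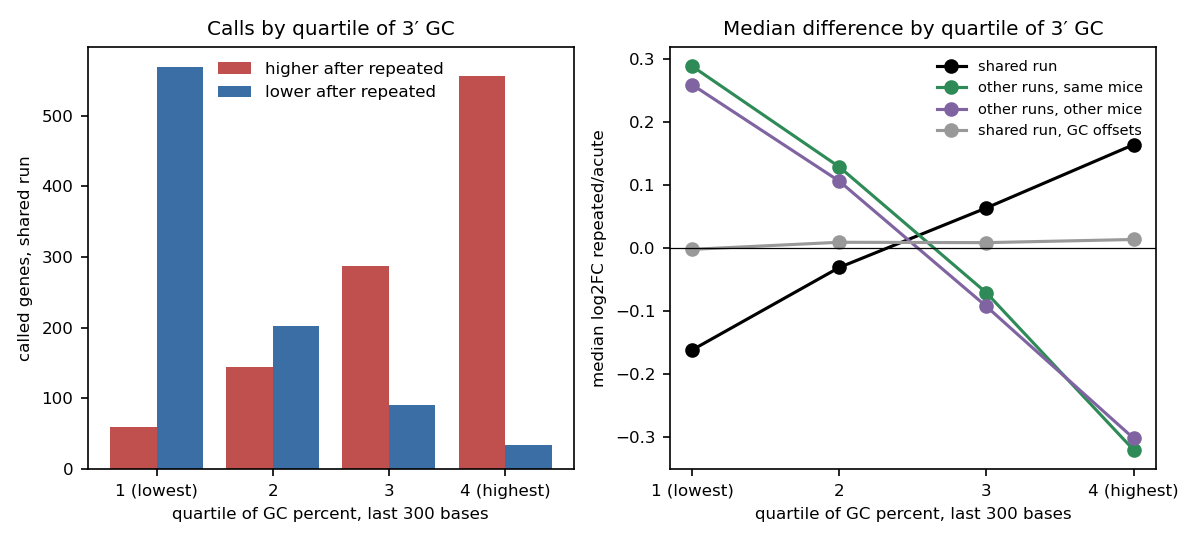
Left, called genes of the shared run by quartile of the GC percent of the last 300 bases, with 557 higher and 34 lower genes in the highest quartile. Right, the median log2 fold change of all genes of each quartile in the shared run, in the other runs for the same and for other mice, and in the shared run after GC offsets; the lines of the shared run and the other runs cross.

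Most immediate-early genes fell after repeated cocaine, and 8 of those that fell kept this direction. Of 21 members of the list tested, 14 were lower, 0 were higher and 17 had a log2FC below 0, against 7.35% lower and 8.6% higher of all genes. The median log2FC was -0.47, against 0.006 for all genes, with -0.30 in the other libraries of the same mice and -0.38 in other mice. Of the 14, 8 were lower in both other sets of libraries (Egr1, Egr2, Egr3, Egr4, Arc, Fosl2, Nr4a1 and Nr4a3), and all of these but Nr4a1 were also called lower in both. Of all calls, 11.6% kept their direction in both. With GC offsets 9 of the 21 members were lower, against 499 of all 12244 genes, and the median was -0.36. In tissue, fewer responding cells and less RNA per cell cannot be told apart.

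Egr2, a zinc finger transcription factor, fell most among the members that kept their direction. At 1 hr its level was 188 CPM (the share of a library's total count, scaled as counts per 1e+06) in both acute mice, and 81.5 and 68.6 in the repeated mice. At 0 hr it was 25.5 and 13.2 in acute (naive) mice, and 8.62 and 11.1 in repeated mice. At 2 hr it was 19.9 and 43.3 against 23.8 and 16.5, and at 4 hr 21.4 and 21.7 against 6.45 and 13.5. Both repeated mice thus lay below both acute mice at 0, 1 and 4 hr, and the values overlapped at 2 hr. The log2FC was -1.07 (SE 0.15, adjusted p = 5.57e-07), with -0.89 in the other libraries of the same mice and -0.78 in other mice. Between 0 and 1 hr the mean level rose 9.70-fold in acute and 7.62-fold in repeated mice. Of the 8 members that kept their direction, the rise was also smaller in repeated mice for Egr4 (5.35-fold and 4.32-fold), Arc (4.85-fold and 4.69-fold), Egr3 (1.63-fold and 1.44-fold) and Egr1 (2.41-fold and 2.40-fold). It was larger for Nr4a1 (5.96-fold and 9.14-fold), Nr4a3 (6.13-fold and 13.1-fold) and Fosl2 (5.48-fold and 6.10-fold). These rises were not tested on their own, and the test of a difference that varied with time point passed for no gene. The 0 hr mice had no injection that day, so cocaine and the injection itself cannot be told apart in these rises. With the 0 hr mice left out the log2FC of Egr2 was -1.09.

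Egr4, of the same family, was at 335 and 422 CPM in the acute and 157 and 162 CPM in the repeated mice at 1 hr. It was at 76.5 and 64.9 CPM against 33.3 and 40.6 at 0 hr. Its log2FC was -0.97 (SE 0.13, adjusted p = 8.00e-08), with -0.44 in the same mice and -0.42 in other mice. Egr3 was at 257 to 520 CPM (median 444) in acute and 172 to 301 CPM (median 259) in repeated mice, with a log2FC of -0.65 (SE 0.08, adjusted p = 4.57e-08). Its mean in acute mice was highest at 4 hr, where the values overlapped those of 1 and 2 hr, whereas Egr2 and Egr4 were highest at 1 hr.

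Nr4a1, an orphan nuclear receptor, was at 620 and 721 CPM in acute and 452 and 376 CPM in repeated mice at 1 hr. At 0 hr the mean of the repeated mice was 40.2% of that of naive mice. Its log2FC was -0.82 (SE 0.11, adjusted p = 2.53e-07). It was -0.38 in the other libraries of the same mice, but -0.005 (SE 0.14) in other mice, where no difference was detectable.

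Arc, which regulates AMPA receptor trafficking, was at 562 and 686 CPM against 378 and 336 CPM at 1 hr. At 2 hr the 4 mice overlapped (43.3 and 161 CPM acute, 134 and 62.6 CPM repeated). Its log2FC was -0.61 (SE 0.13, adjusted p = 0.000565), with -0.85 in the same mice and -0.57 in other mice. DESeq2 did not call it in the shared run.

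Fos fell in the shared run without keeping its direction. It was at 75.8 and 103 CPM in acute and 29.5 and 56.2 CPM in repeated mice at 1 hr, with a log2FC of -1.04 (SE 0.21, adjusted p = 0.00017). In the other runs its log2FC was 0.27 (SE 0.15) in the same mice and 0.13 (SE 0.26) in other mice, and neither passed the test. Fosb and Npas4, by contrast, did not pass in the shared run, with log2FCs of 0.003 (SE 0.16) and 0.49 (SE 0.22). Fosb was -1.13 in the same mice and -1.80 in other mice, and Npas4 was -0.34 and -0.56.

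By time point, 14 of the 21 members had both repeated mice below both acute mice at 0 hr, 15 at 1 hr, 3 at 2 hr and 14 at 4 hr. Over all 12244 genes tested, the share with both repeated mice below both acute mice was 22.7% at 0 hr, 23.3% at 1 hr, 24.8% at 2 hr and 23.4% at 4 hr, so that the count of the list at 2 hr was below this background. The median log2 ratio of the means was -0.56 at 0 hr, -0.51 at 1 hr, -0.23 at 2 hr and -0.33 at 4 hr. Over all genes it was 0.019, 0.002, -0.016 and 0.013. By mean level, 17, 19, 15 and 17 of the 21 members were lower in repeated mice at 0, 1, 2 and 4 hr. The lower levels of the list were therefore clearest at 0, 1 and 4 hr and smaller at 2 hr, where most members overlapped. A change of the difference with time did not pass for any gene. From the 0 hr mice alone, with 2 against 2, Egr4 and Nr4a1 passed (adjusted p = 0.0419 and 0.00839), while Egr2, Egr3 and Arc did not (0.282, 0.105 and 0.0615).

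**Figure D3:**
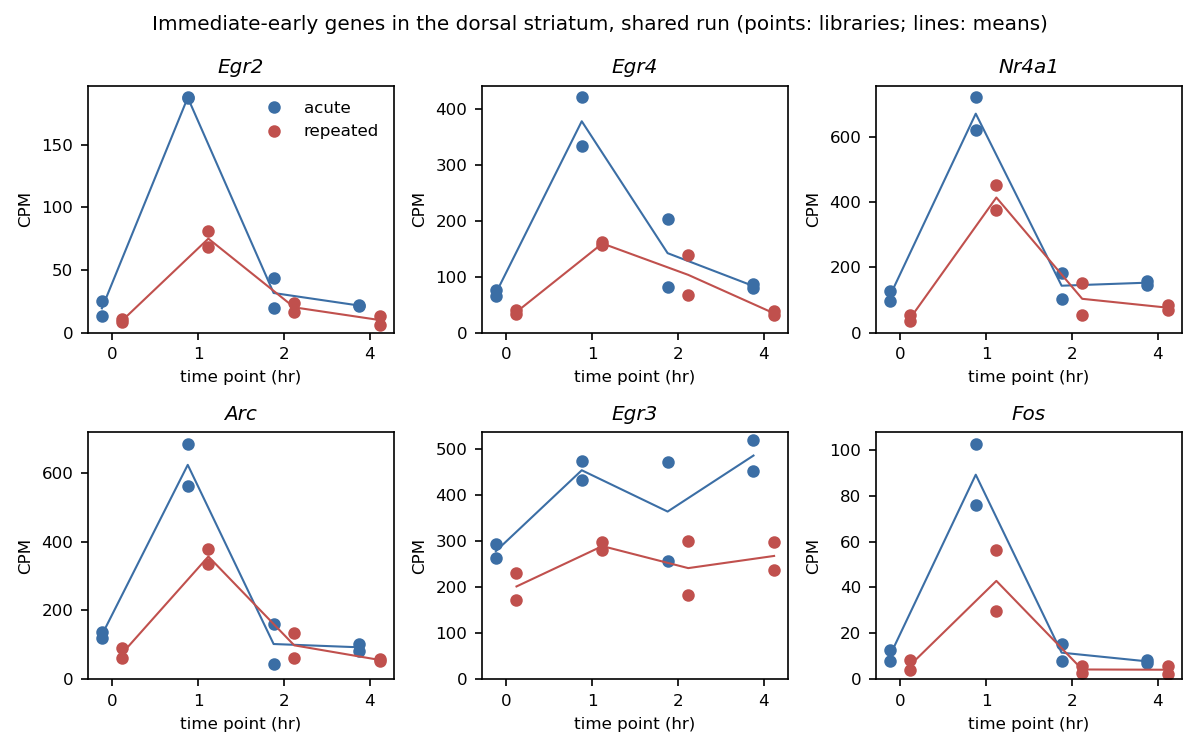
CPM of 6 immediate-early genes in the shared run at 0, 1, 2 and 4 hr, with 1 point per mouse and lines through the means of 2 mice, acute in blue and repeated in red. For Egr2, Egr4, Nr4a1, Arc and Egr3 both repeated mice lie below both acute mice at 0, 1 and 4 hr, and values overlap at 2 hr.

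The promoters of 4 of these genes are shown because the genes moved together and kept their direction. Another such gene with a window, Fosl2, is not shown, and its window held none of the letters marked here. They are RefSeq windows of GRCm38.p6 from 250 bases before to 50 after the start of the gene, written 5′ to 3′ on the strand of the gene. Capitals mark TGACG on either strand (CGTCA on the strand shown), the core of the cyclic AMP response element (CRE) that CREB binds. Of 17 list members with a window, 12 held these letters, and of the 11 of them called lower, 7 did. Of the windows of all 27025 genes, 21% held them. The full CRE, TGACGTCA, which contains the core, was in 2 of the 17 and in 1.88% of all windows, and the CArG box of serum response factor was in 0 of the 17 and in 1.57% of all. The EGR site, GCGTGGGCG or GCGGGGGCG, was in 3 of the 17 and in 3.49% of all, and TATAAA in 3 of the 17 and in 14.2% of all. All motifs were searched on both strands. These matches describe letters, not binding. The windows are at chr10:67535249-67535548 (plus strand) for Egr2, chr6:85513540-85513839 (minus) for Egr4, chr15:101266596-101266895 (plus) for Nr4a1 and chr4:48045055-48045354 (plus) for Nr4a3.
Egr2: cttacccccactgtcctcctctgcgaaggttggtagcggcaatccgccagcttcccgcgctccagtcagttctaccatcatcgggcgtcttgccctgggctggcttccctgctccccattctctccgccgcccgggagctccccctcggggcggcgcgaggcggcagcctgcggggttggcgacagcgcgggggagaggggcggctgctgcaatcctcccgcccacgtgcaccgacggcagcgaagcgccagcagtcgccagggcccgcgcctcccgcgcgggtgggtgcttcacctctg
Egr4: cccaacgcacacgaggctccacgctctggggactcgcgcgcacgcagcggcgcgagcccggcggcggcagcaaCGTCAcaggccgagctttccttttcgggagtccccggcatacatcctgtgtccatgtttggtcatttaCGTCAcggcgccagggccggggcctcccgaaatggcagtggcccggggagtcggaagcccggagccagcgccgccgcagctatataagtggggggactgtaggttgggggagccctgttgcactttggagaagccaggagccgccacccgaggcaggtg
Nr4a1: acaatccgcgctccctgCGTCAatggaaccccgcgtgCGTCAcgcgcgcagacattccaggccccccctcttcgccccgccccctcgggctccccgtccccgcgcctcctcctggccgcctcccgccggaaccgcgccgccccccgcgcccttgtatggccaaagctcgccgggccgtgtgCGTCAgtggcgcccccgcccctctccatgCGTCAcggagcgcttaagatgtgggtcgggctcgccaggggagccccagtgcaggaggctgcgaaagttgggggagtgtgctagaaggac
Nr4a3: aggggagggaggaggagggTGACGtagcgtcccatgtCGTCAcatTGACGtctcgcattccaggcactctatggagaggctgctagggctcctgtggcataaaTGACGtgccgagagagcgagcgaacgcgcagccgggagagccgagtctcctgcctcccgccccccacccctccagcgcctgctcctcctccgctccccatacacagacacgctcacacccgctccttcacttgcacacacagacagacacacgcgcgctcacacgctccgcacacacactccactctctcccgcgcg

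The windows of Egr4, Nr4a1 and Nr4a3 held the core letters 2, 4 and 4 times, and that of Egr2, which fell most among these 4, 0 times.

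Lpcat4, which encodes a lysophospholipid acyltransferase of membrane remodelling, rose more than any other gene that kept its direction at 5 CPM or more. It was at 16.5 to 28.9 CPM (median 25.96) in acute and 104 to 166 CPM (median 134) in repeated mice, 5.61-fold higher (log2FC 2.49, SE 0.10, adjusted p = 9.17e-26). In the other runs acute mice lay at 26.7 to 53.0 CPM (n = 16), and repeated mice at 67.9 to 94.7 (exp17, n = 8) and 67.8 to 110 (exp16, n = 9). The treatments did not overlap in either kind of comparison. The log2FC was smaller in the other runs, 0.95 (SE 0.09) in the same mice and 1.08 (SE 0.09) in other mice. Repeated libraries thus had higher levels in the shared run than in the other runs, and acute libraries lower ones.

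The other genes that rose and kept their direction changed less. Senp3, a protease that removes SUMO, was at 13.9 to 20.9 CPM (median 17.3) in acute and 24.4 to 47.5 CPM (median 36.3) in repeated mice, with a log2FC of 1.03 (SE 0.15, adjusted p = 1.08e-06). It was 0.24 in the same mice and 0.18 in other mice, and neither was called. Hdhd5 rose from a median of 12.1 to 27.1 CPM (log2FC 1.15, SE 0.17, adjusted p = 1.32e-06), and its log2FC was 0.65 and 0.98 in the other runs, both called. Pdk4, a kinase that inhibits pyruvate dehydrogenase and a target of glucocorticoids, rose from 6.49 to 11.5 CPM (median 9.52) to 7.97 to 24.8 CPM (median 19.4). Its log2FC was 0.99 (SE 0.21, adjusted p = 0.000531), with 0.95 in the same mice and 0.64 in other mice. Hmgb2, Spata33, Gimap6, Dnaic2, Nostrin and Stard5 completed the 10 largest increases, with log2FCs of 1.44, 1.02, 1.01, 1.01, 1.00 and 1.00. All of them had mean levels under 9 CPM. In other mice their log2FCs ran from 0.003 (Spata33) to 0.24 (Stard5), and none was called there. Hmgb2 was 1.73 in the same mice but 0.05 in other mice, and it was called higher for exp17 over exp16 (1.52).

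Among the genes that fell and kept their direction, those outside the immediate-early list were led by Arl5b, Kremen1, Pno1, Peg10, Arntl and Hivep1. Arntl encodes BMAL1, the transcriptional activator of the circadian clock. It was at 62.6 to 99.5 CPM (median 77.3) in acute and 23.1 to 69.7 CPM (median 57.4) in repeated mice. Both repeated mice lay below both acute mice at every time point, with a log2FC of -0.66 (SE 0.12, adjusted p = 5.21e-05), -0.31 in the same mice and -0.32 in other mice. The clock list as a whole had 3 higher and 2 lower of 18 members, against 8.6% and 7.35% of all genes. Cry1, Nr1d1 and Dbp were higher with log2FCs of 0.46, 0.32 and 0.32, and none of them kept its direction in both sets of other libraries. Rora was lower (-0.38) but 0.62 and 0.79 in the other runs. The other 5 genes had log2FCs of -0.73 (Arl5b), -0.70 (Kremen1), -0.68 (Pno1), -0.67 (Peg10) and -0.64 (Hivep1). In the same mice and in other mice, Arl5b was -0.30 and -0.31, Kremen1 -0.05 and -0.19, and Hivep1 -0.15 and -0.24. Peg10 was -0.03 and -0.98, and Pno1 was -0.002 and -0.012, a sign without size. Of these values only that of Peg10 in other mice was called.

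Nefm, the medium neurofilament chain, fell with no overlap between the treatments. It was at 198 to 264 CPM (median 207) in acute and 135 to 189 CPM (median 146) in repeated mice, with a log2FC of -0.51 (SE 0.07, adjusted p = 7.72e-08). The log2FC was -0.69 in the same mice and -0.48 in other mice, both called, and -0.62 with GC offsets. Of the 31 genes for microtubules and axonal transport, 2 were higher and 6 lower (median 0.03), against 8.6% and 7.35% of all genes. Of these 8, 1 higher and 2 lower ones kept their direction, against 11.6% of all calls. Its partner Nefl was lower in the shared run (-0.32) but -0.04 and 0.02 in the other runs, and Kif5b, the heavy chain of a kinesin, was -0.59 in the shared run but 0.47 and 0.57 in the others.

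**Figure D4:**
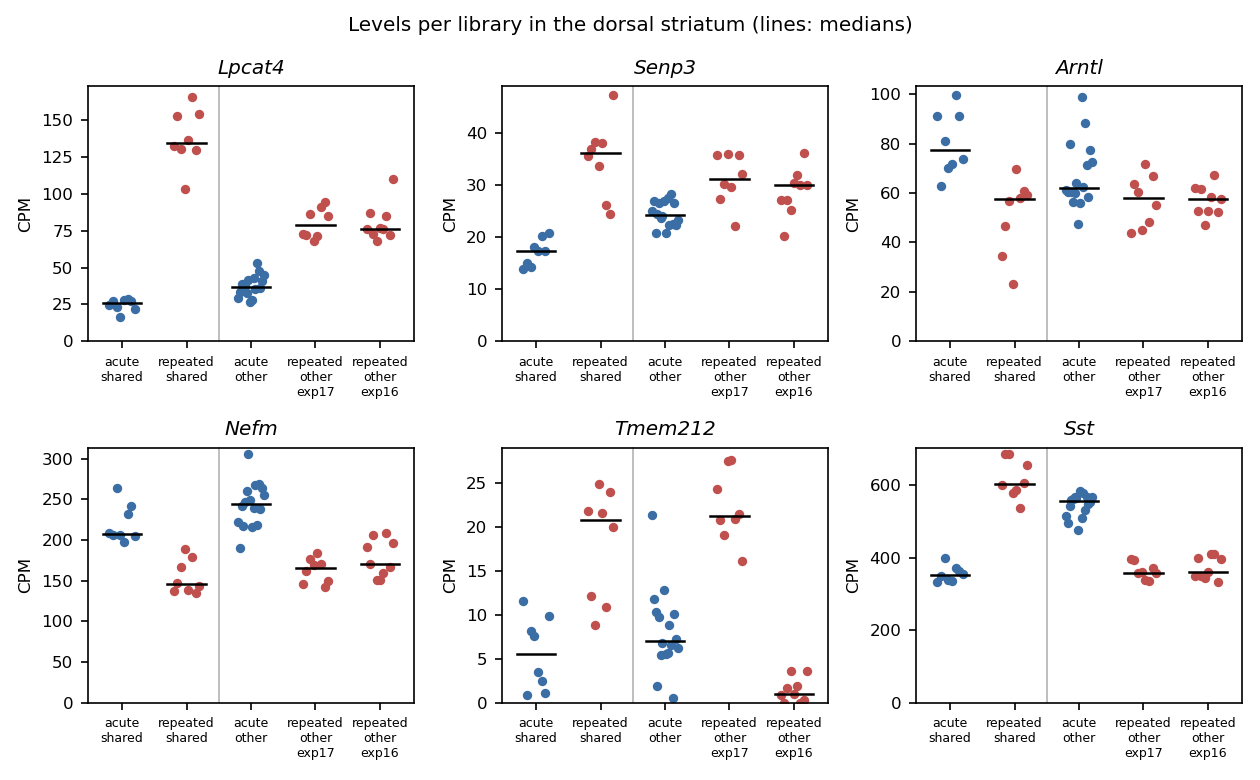
CPM per library of 6 genes in acute (blue) and repeated (red) mice, in the shared run (left of the grey line) and the other runs (right), with lines at the medians. Lpcat4 and Nefm keep their direction, Sst is higher after repeated cocaine in the shared run and lower in the others, and Tmem212 is high in exp17 mice in both runs and at 0 to 3.66 CPM in exp16 mice.

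Markers of ependymal cells, the ciliated cells that line the ventricles, were higher in the repeated mice of the shared run. All 6 list members were called higher, against 8.6% of all genes (median log2FC 1.48). Tmem212 was at 0.882 to 11.6 CPM (median 5.53) in acute and 8.86 to 24.9 CPM (median 20.8) in repeated mice, with a log2FC of 1.71 (SE 0.31, adjusted p = 3.13e-05). Ccdc153 rose with 1.59, Dynlrb2 with 1.37 and Mia with 1.89. The summed level of the list was 23.4 to 81.5 CPM in acute and 83.2 to 153 CPM in repeated mice, without overlap. Each of the 6 had counts in both treatments, and Mia was at 0 in 2 of the 8 acute libraries.

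The ependymal list did not keep its direction in other mice. Its median log2FC was 1.16 in the other libraries of the same mice and -1.97 in other mice, where all 6 were called lower, against 19.8% of all genes. Within the repeated mice of the other runs, which share a run and a treatment, the list differed between exp17 (96.6 to 170 CPM summed, n = 8) and exp16 (26.1 to 37.7 CPM, n = 9). The log2FC of exp17 over exp16 was 3.87 for Tmem212 and 3.81 for Ccdc153. Over all genes, 964 of 12561 (7.67%) differed between these codes. At a mean of 5 CPM or more, Lbp, Cfap126, Fam183b and Tmem212 were the 4 largest increases of the shared run that turned around in other mice, with 2.20, 2.05, 1.72 and 1.71 in the shared run, -2.12, -2.10, -2.64 and -2.62 in other mice, and 2.51, 2.01, 3.14 and 3.87 for exp17 over exp16. Cfap126 and Fam183b are also genes of motile cilia. The acute mice of the other runs, all exp20, spanned 36.1 to 295 CPM summed (median 71.3, n = 16), which takes in the whole range of exp17 and overlaps that of exp16. Treatment and experiment code cannot be told apart in these levels.

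The defining markers of spiny projection neurons were high in every library, and the dopamine receptors were not called in the shared run. Drd1 was at 344 to 419 CPM in acute and 370 to 417 CPM in repeated mice (log2FC 0.05, SE 0.05, adjusted p = 0.522), and Drd2 at 264 to 308 and 260 to 320 CPM (-0.01, SE 0.05, adjusted p = 0.917). In other mice Drd1 was 0.43 and Drd2 -0.49, and both were called. Ppp1r1b (DARPP-32) had an adjusted p of 5.73e-05 with a log2FC of 0.16, under the fold threshold, and was -0.52 and -0.47 in the other runs. Of 15 markers shared by these neurons, 2 were higher and 1 lower (median -0.01), against 8.6% and 7.35% of all genes. Pdyn, the prodynorphin gene of D1 neurons, rose by 0.32, with 0.29 in the same mice and -0.36 in other mice. Of the D2 markers, Adora2a was higher (0.41) and Sp9 and Gpr6 were lower (-0.53 and -0.31). None of the called markers of these 3 lists kept its direction in both sets of other libraries. No cortical marker of 5 tested was called. The summed level of all 9 cortical markers with counts, tested or not, overlapped (48.1 to 71.4 CPM acute, 48.4 to 94.9 CPM repeated).

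Sst and Npy, peptides of a class of striatal interneurons, were among the genes that turned around. Sst was at 333 to 400 CPM (median 352) in acute and 537 to 686 CPM (median 603) in repeated mice of the shared run (log2FC 0.80, SE 0.05, adjusted p = 6.70e-18). In the other runs acute mice lay at 476 to 584 CPM and repeated mice at 333 to 411 CPM, and the log2FC was -0.70 in the same mice and -0.58 in other mice. Npy gave 0.51, -0.51 and -0.45. The treatments did not overlap in the shared run for either gene, so that a difference can stand clear of the spread within a run and still not keep its sign. Slc5a7, the choline transporter of cholinergic interneurons, fell by 0.77 on the log2 scale and was 0.12 and 0.34 in the other runs. Cartpt was at 9.24 to 16.9 CPM in acute and 0 to 6.91 CPM in repeated mice (log2FC -2.47, SE 0.37, adjusted p = 9.55e-07), with 0.22 in the same mice and -0.78 in other mice.

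Among glial lists, which are read against 8.6% higher and 7.35% lower of all genes, 4 of 16 myelin genes were lower and 0 higher. Of the 16, 15 had a log2FC below 0. The median was -0.14 in the shared run, -0.39 in the same mice and -0.12 in other mice, where 10 and 6 of the 16 were called lower, against 21.9% and 19.8% of all genes. Mbp, myelin basic protein, was at 4703 to 5422 CPM in acute and 3303 to 4067 CPM in repeated mice (log2FC -0.44, SE 0.04, adjusted p = 1.67e-14) and was the only 1 of the 4 to keep its direction in both sets, with -0.40 and -0.11. Ermn, Ugt8a and Aspa were the others. Of 12 microglial markers, 5 were higher and 1 lower, and 0 kept their direction: C1qb, a complement subunit, was 0.63 in the shared run, -1.07 in the same mice and -0.73 in other mice. Of 11 endothelial markers 3 were higher (Ly6c1 0.92, Ly6a 0.81 and Abcb1a 0.72). They were -0.15, -0.07 and 0.44 in the same mice, where Abcb1a was called higher, and -0.54, -0.30 and -0.16 in other mice, where Ly6c1 and Ly6a were called lower. The median of this list was 0.44 in the shared run, 0.30 in the same mice and -0.30 in other mice, and for exp17 over exp16 it was 0.46, with 6 of 11 called higher, against 4.83% of all genes. Its summed level was 270 to 425 CPM in acute and 434 to 605 CPM in repeated mice of the shared run. Of 13 astrocyte markers 1 was higher and 1 lower (median -0.01), a share near that of all genes. Gja1, a gap junction gene, rose by 0.47 and kept its direction (0.36 and 0.20), and Aqp4, a water channel, was lower (-0.35, with 0.21 in the same mice and -0.14 in other mice).

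**Figure D5:**
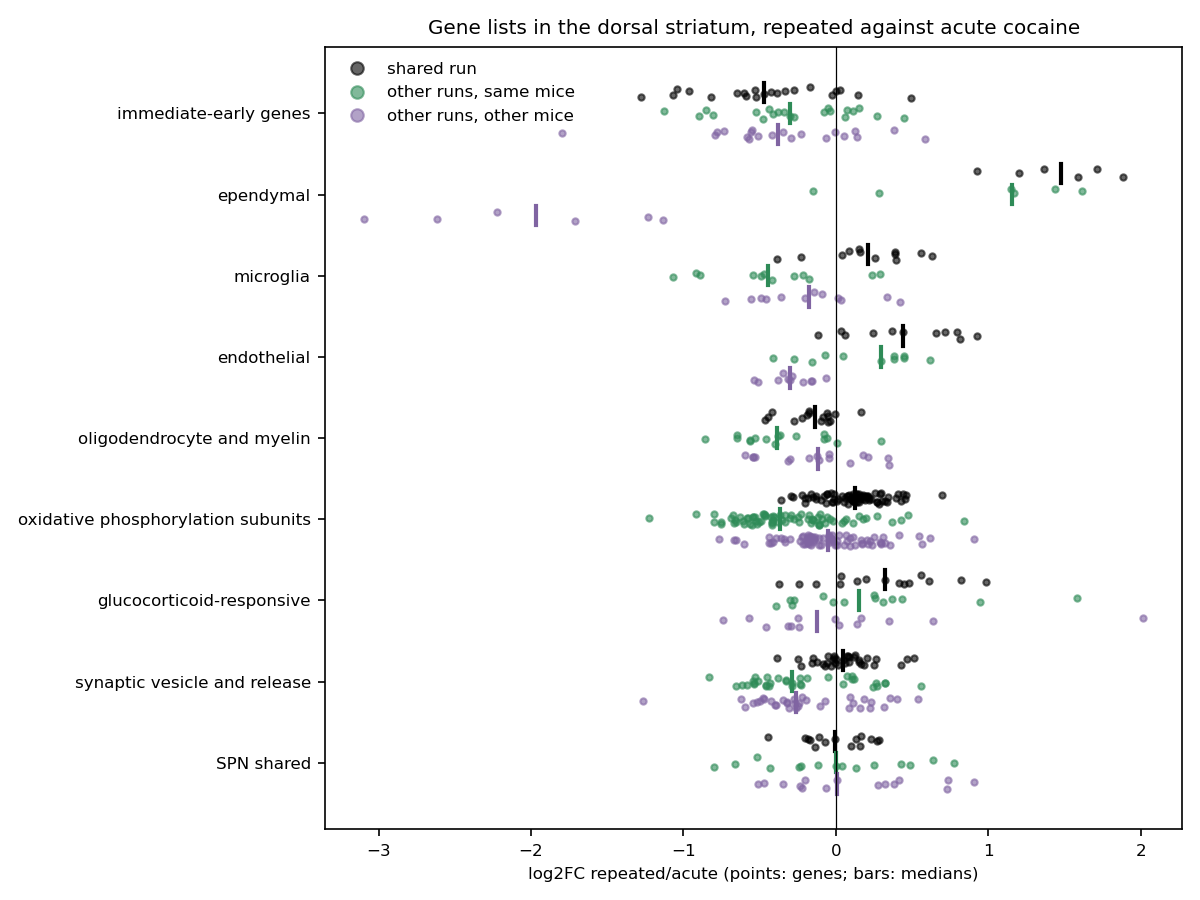
Log2 fold change of repeated over acute cocaine for the members of 9 gene lists (points) with their medians (bars), in the shared run and in the other runs for the same and for other mice. Immediate-early genes have medians of -0.47, -0.30 and -0.38, whereas the ependymal list goes from 1.48 and 1.16 to -1.97.

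Most calls in the lists for energy supply, protein turnover and synapses did not keep their direction, which was also so for all calls, and several of the counts lie near the 8.6% higher and 7.35% lower of all genes. Of 75 subunits of oxidative phosphorylation, 16 were higher and 3 lower (median 0.12), 0 of them kept it, and the median was -0.37 in the other libraries of the same mice, -0.05 in other mice and -0.22 for exp17 over exp16. Ndufb4, a complex I subunit, was 0.70 in the shared run and -1.22 and -0.76 in the others. Of 36 proteasome subunits 6 were higher and 0 lower, of which 1 kept its direction, with Psmb7 at 0.64 against -0.31 and -0.06. Of 39 postsynaptic genes 7 were higher and 6 lower, and 1 kept its direction. Shank3, a scaffold of glutamatergic synapses, was at 99.2 to 121 CPM in acute and 223 to 315 CPM in repeated mice (log2FC 1.22, SE 0.06, adjusted p = 1.75e-20), and -0.12 and -0.11 in the other runs. Of 35 genes for synaptic vesicles 4 were higher and 1 lower, led by Vamp2 (0.51, with -0.65 and -0.62) and Syp (0.47, with -0.62 and -0.60). Of 32 genes for dopamine and cyclic AMP signalling 8 were higher and 5 lower, and the 1 that kept its direction was Pde7b, a phosphodiesterase of cyclic AMP (0.48, with 0.70 and 1.12).

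Glucocorticoid-responsive genes had 5 higher and 1 lower of 15 (median 0.32). Besides Pdk4, Tsc22d3 (GILZ) rose and kept its direction, with 0.45 in the shared run, 0.25 in the same mice and 0.02 in other mice. Mt1 and Ddit4 rose (0.61 and 0.48) but were below 0 in both other sets (-0.39 and -0.32, -0.29 and -0.57). Of 20 genes for chaperones of the endoplasmic reticulum 3 were higher and 1 lower, and of 34 other chaperones 4 were higher and 1 lower, and 0 of these 9 kept their direction. For all genes tested the shares were 8.6% higher and 7.35% lower, and 11.6% of all calls kept their direction. At a mean of 5 CPM or more, the 4 largest decreases that turned around in other mice were Cdyl2, Gpr75, Jrkl and Ldlrad3. Their log2FCs were -1.09, -1.08, -1.07 and -1.07 in the shared run and 0.83, 0.38, 0.80 and 0.60 in other mice.

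The shared run also held 8 challenge libraries (experiment code exp18), from mice given 5 doses of cocaine and then kept abstinent. The mice of 1, 2 and 4 hr had 1 more dose, the challenge, and the 2 mice of 0 hr did not. Against the same 8 acute libraries, 1179 of 12091 genes were higher (9.75%) and 1060 lower (8.77%). The acute libraries enter both comparisons, so their log2FCs are set side by side and not compared. Egr2 was -0.13 after challenge and -1.07 after repeated cocaine, Egr4 was -0.14 and -0.97, Nr4a1 was -0.20 and -0.82, Arc was 0.07 and -0.61, and none of these passed the test after challenge. Of the 21 immediate-early genes, 1 was lower and 2 were higher after challenge. Lpcat4 was 2.50 and 2.49, Nefm was -0.69 and -0.51, Tmem212 was 1.97 and 1.71, Sst was 0.93 and 0.80, and all passed in both. Arntl was 0.10 after challenge, without passing, and -0.66 after repeated cocaine.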

How the data were processed

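The authors deposited raw counts per gene for 3′ RNA-seq libraries that carry molecular identifiers. Before counting in HTSeq they removed PCR duplicates, trimmed polyA and aligned with STAR (build GRCm38). The paper then lists leaving out shallow libraries and down-sampling the deepest. Genes that overlap and close paralogs that share reads are uncertain. Tool versions, annotation and whether strand was used in counting are not given in the sources used here. The table holds 19363 genes. A further library of a mouse shows that a difference repeats in those animals, not in others.

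The statistics were computed in R 4.3.3. Each set of libraries was fitted on its own with edgeR 4.0.16: genes passed filterByExpr by treatment and time, TMM factors scaled the libraries, the quasi-likelihood F test took time point as a factor, and p-values were adjusted by Benjamini-Hochberg over all genes tested. The SE is the absolute log2FC divided by the square root of F. CPM uses the library total, without TMM factors. Alternatives used limma 3.58.1 and DESeq2 1.42.0, and plots matplotlib 3.10.9. Transcript sequences and their GC were read from GENCODE M21 on build GRCm38, and the counting may have used another annotation. The tests were tried on simulated data.

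Members and lists were chosen with earlier results of these data known. Among calls with a mean of at least 5 CPM, the named genes are the 10 largest in each direction that kept their sign in both sets of other libraries and the 4 largest in each direction that turned in other mice. To these come up to 4 called members of each list, of any level, and Drd1, Drd2, Ppp1r1b, Fos, Egr2 and Arc. Egr1, Fosb, Fosl2, Npas4, Nr4a3 and Dbp lie outside this rule and were chosen after their values were seen. Bcl11b, Gpr52 and Cct6a were not analysed here. Some results that the rule selects are not reported here. P-values measure the spread between mice within a treatment. Alternatives covered scaling, tool, filter, replicate number, time, depth, fold threshold, leaving out each mouse, GC offsets (a lowess of span 0.3) and a spread for each treatment, and the last 2 were chosen after seeing the data.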

Additional observations from a re-analysis of the deposited data

Results flagged for a closer look

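Within the 8 libraries of a treatment in the shared run, 5 of 74 groups tested had a library set apart from the rest by more than 0.526 of the range, where chance flags about 1 in 20. Drd2 was at 320 CPM in a repeated mouse of 0 hr, the highest of 8. Fam183b was at 22.8 CPM in a repeated mouse of 2 hr. Hdhd5 was at 20.8 CPM in an acute mouse of 2 hr, the only acute value inside the range of the repeated mice. Kremen1 was at 58.4 CPM in an acute mouse of 2 hr, and Pno1 at 53.7 CPM in a repeated mouse of 2 hr. The 8 libraries span 4 time points.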

How the results depend on the processing

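The counts of 1053 higher and 900 lower genes stayed within 1.5 times under RLE factors, DESeq2, limma voom, other filters, thinning, no time covariate and without the 0 hr mice. They were 679 and 499 with GC offsets, 90 and 79 from the 0 hr mice alone, and 309 and 123 with a fold over 1.5. In the other runs 1870 genes were higher at 0 hr alone, 1708 lower with GC offsets, and 772 higher and 591 lower with a fold over 1.5. Between experiment codes 173 genes differed at 0 hr alone and 282 with a fold over 1.5, and between challenge and acute 340 and 634. Of the calls made, 25 of 168 kept their direction at 0 hr alone and 114 of 423 with a fold over 1.5. Without a filter on low counts 6 genes differed by time, and settings that drop or fix time were not run for that test. The log2FC of Drd2, not called, was 0.082 from the 0 hr mice alone, 0.017 with the replicate block, and between -0.054 and 0.0071 with 1 mouse left out, so its sign changed.

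With the replicate number as a block (replicate block), 669 genes were higher and 568 lower, 196 calls kept their direction, 21 genes differed between codes and 917 between challenge and acute and 2 differed by time. Deviations of same-numbered mice correlated at 0.013 to 0.031, so the mice share only a number. The numbers also go with experiment code. Within the repeated mice of the other runs, exp16 mice had lower numbers than exp17 mice at every time point. Challenge mice of the shared run had only the lowest numbers, unlike many acute mice. The block therefore takes up much of these contrasts, and its counts cannot show whether they hold.

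Leaving out 1 mouse at a time gave 889 to 1019 higher and 793 to 974 lower genes, 286 to 368 calls that kept their direction and 0 to 1 genes that differed by time. Of 119 named genes tested this way, 116 were called and 93 of these stayed called without any 1 mouse. GC offsets ended 31 of these calls, the replicate block 31, the 0 hr mice alone 87, and leaving the 0 hr mice out 15. Depth limits genes of a few CPM, where a library holds few counts, and the shared run has 8 mice of each treatment, from 1 experiment code each. Without the time covariate Egr2, Nr4a1, Arc and Fos were not called.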

Other observations

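Lpcat4 was looked at in the other structures after its values in the DS were seen. In the amygdala it was at 16.98 to 28.1 CPM in acute and 20.2 to 29.7 CPM in repeated mice, and in the lateral hypothalamus at 15.2 to 22.3 CPM and 15.0 to 20.7 CPM, 8 libraries of each, with both treatments from 1 run in these structures. In the limbic cortex it was at 31.5 to 50.6 CPM (n = 8) and 34.1 to 45.5 CPM (n = 7), and in the nucleus accumbens at 16.9 to 25.95 CPM (n = 14) and 21.1 to 32.7 CPM (n = 8), from different runs. These ranges overlapped in all 4 structures. No repeated library outside the DS reached the lowest repeated library of the DS, at 67.8 CPM.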
